A study of Oryza sativa Indica Group with 2 samples.

Results

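Rice chromosome 7 held 327 of the 3946 loci (8.29%) in the authors' deposited comparison of 2 leaf RNA libraries. A locus belongs here if its identifier begins with LOC_Os07g, and each is represented by the coding-sequence model with the largest mean log2 share of reads, out of 442 models. The libraries came from 1 cold-tolerant and 1 cold-sensitive indica rice line, whose names in the labels both begin with IRGA. The tolerant line's name ends in 4-A and the sensitive line's in 4-D-1-CA-1. Before those endings the names are the same. Plants of both lines had 3 leaves and an age of about 20 days, and both were kept for 6 h at 10 °C in light of 40 µmol m-2 s-1. RNA from leaves of 9 plants made 1 library per line. All plants were chilled, so the data compare chilled leaves of the lines and hold no response to cold. With 1 library per line no difference has a replicate check, and a difference between the lines cannot be told apart from one between these pools of plants.

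The deposited header does not name the line on top of the fold change. That line's library is called A below, and the other one B. Reads recovered from the log2 columns were scaled to 12846997 reads in A against 12152372 in B, and levels are given in RPM, which scales reads to those sizes. Ratios are log2 of A over B, so a ratio above 0 means more in A. The bounds in parentheses are 95% exact intervals that cover counting error only. Every locus had passed the authors' own threshold, since the largest adjusted p from edgeR in the authors' deposited table was 0.0499. A rare transcript could therefore enter only with a large ratio. Among loci with under 100 reads over both libraries the smallest absolute log2 ratio was 0.96, against 0.057 among those with 1000 reads or more.

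Locus numbers follow the order of genes along the reference chromosome, from the end of its short arm to the end of its long arm, and do not measure base pairs. As background, the region around a plant centromere has few genes and many transposons and other repeats, while the outer arms are gene-rich. Chromosome 7 of rice is known for heading-date genes, a cluster of plasma membrane aquaporins and genes of cellulose synthesis and photosynthesis. Symbols are given only where the RefSeq gene table of assembly ASM3414082v1 lists them on chromosome 7 and a check of place was passed. Only 142 symbols were tried, so other loci may have one. This left 43 of the 327 loci with a symbol. RefSeq does not hold these locus identifiers, so the pairing of symbol and identifier rests on field knowledge and on a check of place that cannot tell adjacent genes apart.

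Of the 327 loci, 150 were higher in library A and 177 in library B. The share higher in A was 45.9%, against a background of 41.4% over all loci of the table, and the share higher in B was 54.1%, against 58.6%. With all ratios centred on the median of the table, a log2 of -0.31, the split was 181 and 146. That median covers only loci that had passed the authors' threshold, so it is no measure of equal levels. A library with less RNA per cell of a type and one with fewer such cells cannot be told apart in bulk leaf tissue. Both libraries had reads at 309 loci, where the median log2 ratio was -0.26 and the median absolute ratio 0.67, against -0.31 and 0.57 over all loci of the table.

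At least 2-fold separated the libraries at 105 of those 309 loci. Library A was higher at 47 of them, or 15.2%, where the background was 8.48%. Library B was higher at 58, or 18.77%, where the background was 16.8%. In both directions together the share was 34.0%, against 25.3% in the table. Centring made the counts 59 and 34. The chromosome's loci had fewer reads, with a median of 509 over both libraries against 626 in the table, and 76.8% of them reached 100 reads against 84.7%. Among loci with under 100 reads, the uncentred share at least 2-fold higher in A was 55.0%, against 39.5% in the table. From 100 reads to under 1000 it was 10.1%, against 5.88%. With 1000 reads or more it was 0%, against 0.993%. For B these shares were 43.3%, 18.0% and 6.36%, against 56.2%, 16.4% and 3.91%. The share for A was thus above the table's only under 1000 reads, and that for B only from 100 reads up. These differences were not tested.

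**Figure D1:**
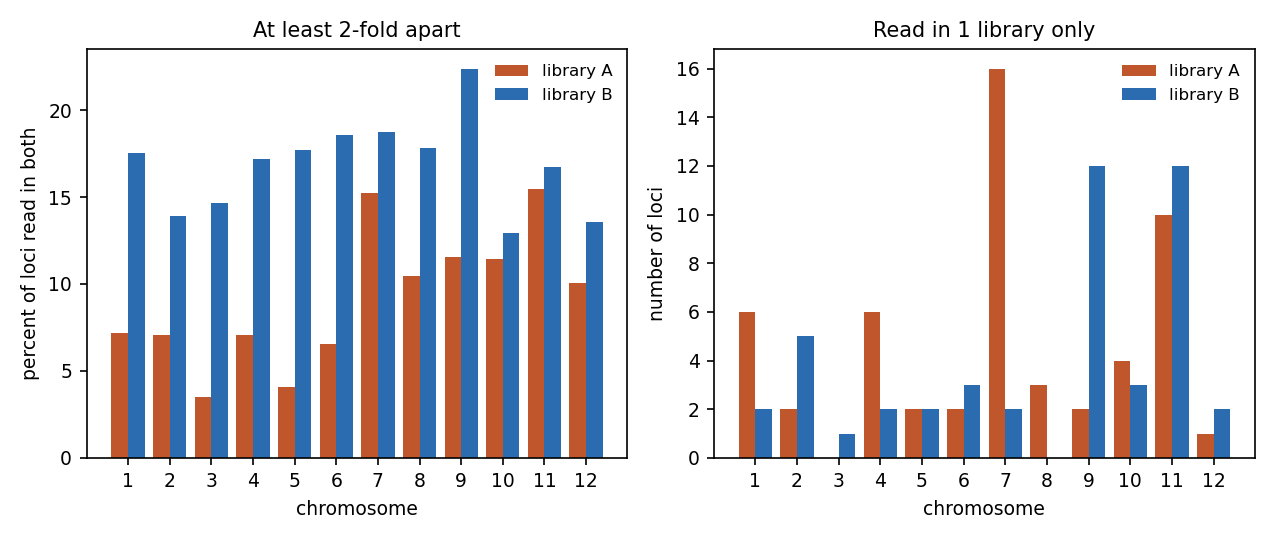
Left, percent of loci read in both libraries that were at least 2-fold higher in A (left bar) or B (right bar), by chromosome; right, number of loci read in A only or B only. Chromosome 7 stands at 15.2% and 18.77% on the left and at 16 and 2 loci on the right.

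The other 11 chromosomes gave the following ranges. The share at least 2-fold higher in A ran between 3.51% on chromosome 3 and 15.5% on chromosome 11, and chromosome 11 alone was above chromosome 7. The share at least 2-fold higher in B ran between 12.9% on chromosome 10 and 22.4% on chromosome 9, and chromosome 9 alone was above chromosome 7. These are shares of loci in a single pair of libraries and were not tested.

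The direction changed along the chromosome. In bins of 2500 locus numbers, 7 of 20 bins held more loci higher in A than in B, and 6 of the 7 lay next to each other between numbers 10001 and 25000. When ratios were centred, 12 of 20 bins held more loci higher in A. The 7th bin, 27501 to 30000, had 14 loci higher in A and 8 in B. At the start of the chromosome, numbers 1 to 2500, the counts were 4 in A and 9 in B. The strongest lean to A was at 22501 to 25000, with 15 and 3, followed by 15001 to 17500 with 10 and 3. By share of loci, the strongest leans to B were on the long arm, with 2 in A and 14 in B at 37501 to 40000 and 2 and 9 at 40001 to 42500. Next came 2501 to 5000 near the start, with 2 and 7, and 47501 to 50000 near the end, with 6 and 20.

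**Figure D2:**
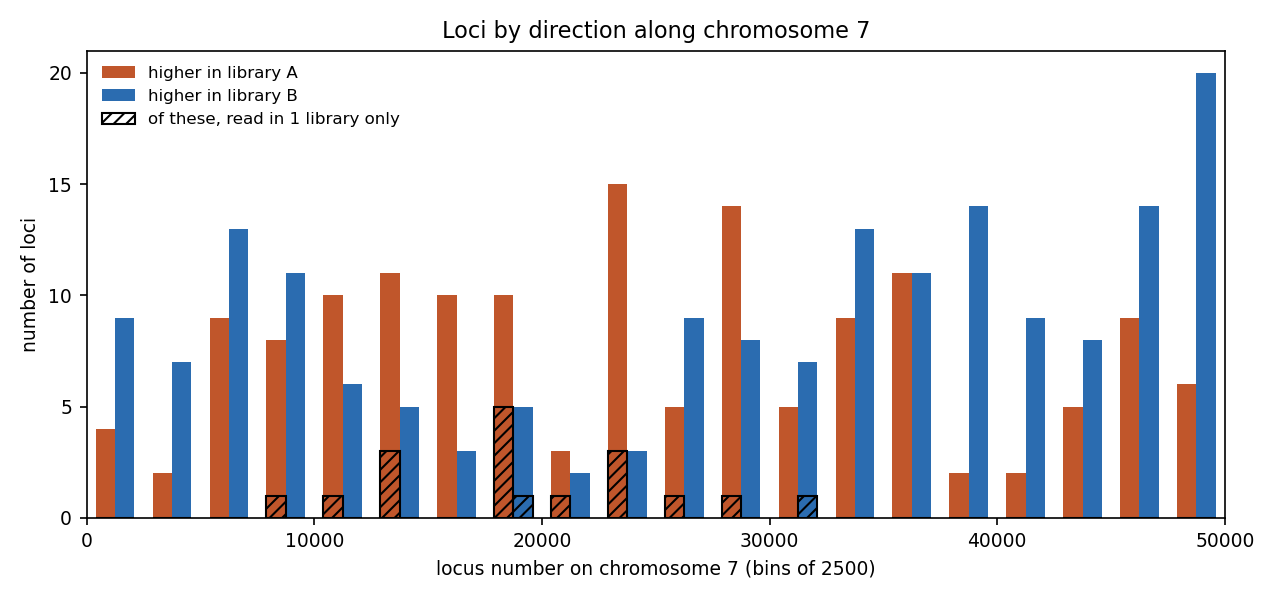
Number of loci higher in library A (left bar) and library B (right bar) in each bin of 2500 locus numbers along chromosome 7, with hatching for loci read in 1 library only. Bars for A exceed those for B in the 6 bins between 10001 and 25000, and bars for B do so at both ends.

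Numbers 10001 to 25000 are called the centre below; these limits were set after the values had been seen. The centre held 83 loci, 59 higher in A (71.1%) and 24 higher in B. The rest of the chromosome held 244 loci, 91 higher in A (37.3%) and 153 higher in B. Centring on the table's median left the centre at 62 and 21 and made the rest 119 and 125. On either side of the centre the counts were alike in proportion, with 23 in A and 40 in B before it and 68 and 113 after it. Of the 16 loci read in A only, 13 lay in the centre, and so did 21 of the 47 loci read in both that were at least 2-fold higher in A. The centre had 9 of the 58 loci at least 2-fold higher in B.

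The centre also had fewer reads per locus. Its median was 193 reads over both libraries, against 627 in the rest of the chromosome, and 42.2% of its loci had under 100 reads, against 16.8%. Among the loci with under 100 reads, 28 were higher in A and 7 in B in the centre, and 19 and 22 elsewhere. Among those with at least 100 reads the counts were 31 and 17 in the centre, and 72 and 131 elsewhere.

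A narrow class of ratios was frequent in the centre. Log2 ratios of 0.4 to 0.5 were found at 30 chromosome 7 loci, while the classes of 0.3 to 0.4 and 0.5 to 0.6 held 12 and 9. Over all loci of the table that class held 396, beside 238 and 128. It made up 9.71% of the loci read in both libraries on chromosome 7 and 10.3% of those in the table. Of the 30 loci, 23 had both read numbers within 1% of those of another locus somewhere in the table. Of the 396 over the table, 287 did so too. The class took up 11 of the 69 loci read in both libraries in the centre, or 15.9%, and 19 of 240, or 7.92%, elsewhere. LOC_Os07g17500 with 719 reads in A against 495 in B, LOC_Os07g15150 with 707 and 488, and LOC_Os07g28630 with 730 and 511 are examples. With only the loci of matching read numbers left out, the centre had 31 loci higher in A and 18 in B, and the rest 58 and 107. With the class of 0.4 to 0.5 also left out, and at least 100 reads asked for, the centre had 13 and 13. The rest then had 42 and 96. Every locus of that class is higher in A, so leaving it out can lower only the counts for A. Whether the loci of matching numbers share reads was not tested.

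**Figure D3:**
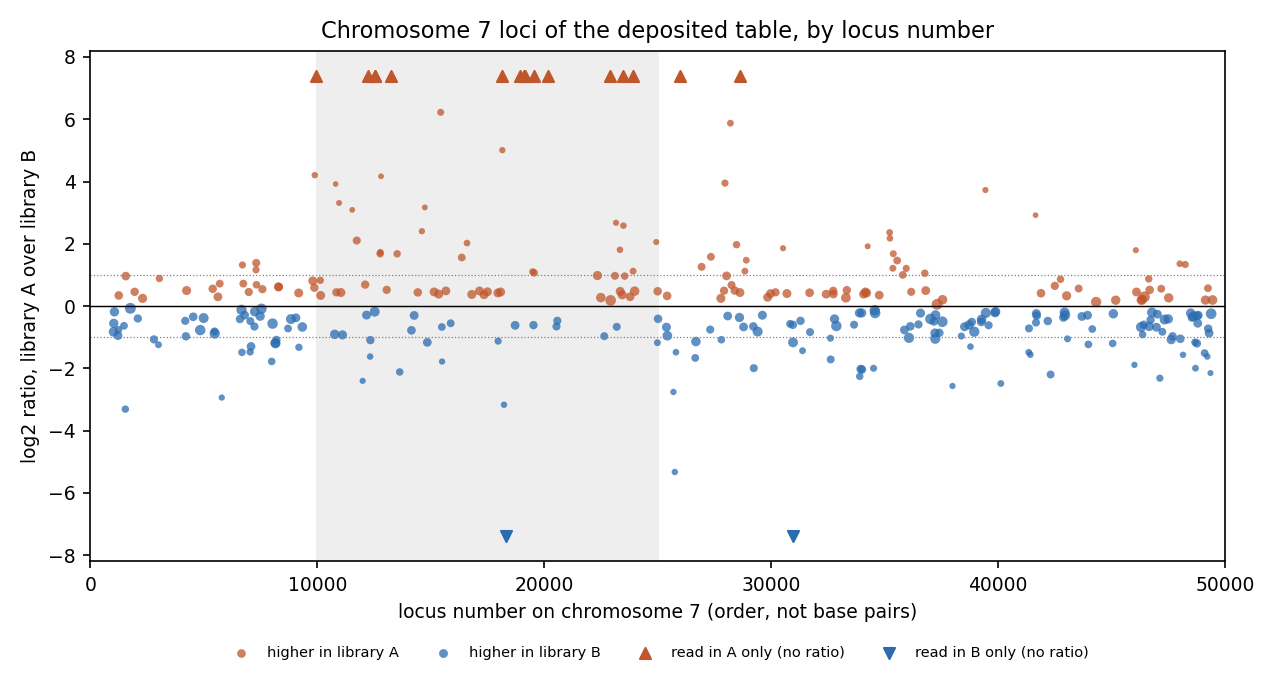
Log2 ratio of library A over library B (vertical axis) at each chromosome 7 locus against its locus number, with larger points for more reads and triangles at the edges for loci read in 1 library only. Grey marks the centre, numbers 10001 to 25000, where 13 of the 16 upper triangles lie; dotted lines mark 2-fold.

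Library A alone had reads at 16 chromosome 7 loci, 4.89% of them, where the background was 1.37%. Library B alone had reads at 2, or 0.612%, where the background was 1.17%. The floor set for a count of 0 was 3 reads, or 0.234 RPM in A and 0.247 RPM in B. It is a one-sided limit and lies under the upper bounds of the exact intervals, 0.287 RPM in A and 0.304 RPM in B. Folds below divide the lower bound of the level in the library with reads by this floor. A missing gene, a silent gene and one whose reads did not align to the reference cannot be told apart.

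LOC_Os07g26000 stood far above the others. It had 1474 reads in A, 114.7 RPM (109 to 120.7), and none in B, which made it at least 441-fold higher in A. LOC_Os07g22910 had 283 reads in A, 22.0 RPM (19.5 to 24.8), and none in B, which made it at least 79.1-fold higher. Its neighbour in the table, LOC_Os07g22930, had 13387 reads in A against 11156 in B and a ratio of 0.18 (0.15 to 0.22), so the gap at LOC_Os07g22910 did not reach that locus. The other 14 loci read in A only had between 10 and 71 reads.

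**Figure D4:**
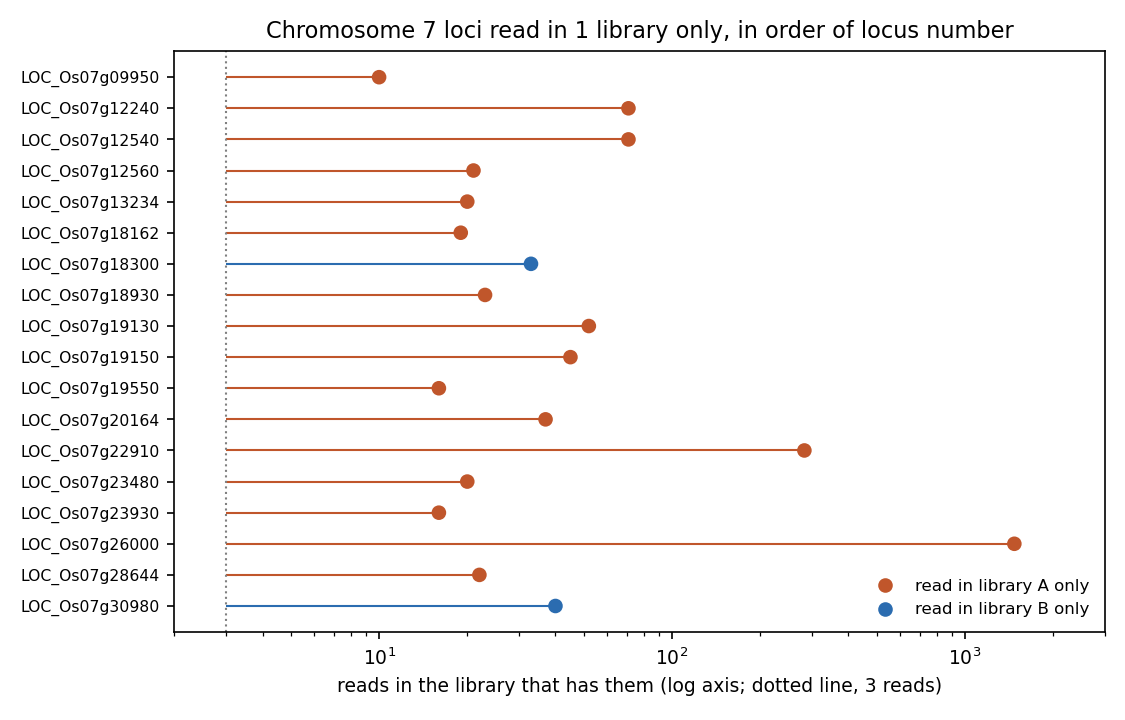
Reads (log axis) at the 18 chromosome 7 loci read in 1 library only, from the lowest locus number at the top to the highest at the bottom, coloured by the library that has the reads. LOC_Os07g26000 with 1474 reads and LOC_Os07g22910 with 283 exceed the rest, which have at most 71.

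Most of these loci came in 3 groups. LOC_Os07g12240 and LOC_Os07g12540 each had 71 reads in A against 0 in B, LOC_Os07g12560 had 21 and LOC_Os07g13234 had 20, all 4 within numbers 12240 to 13234. Of the 7 loci between them that were read in both libraries, 4 were higher in A and 3 in B. Farther on, 6 loci between 18162 and 20164 were read in A only: LOC_Os07g18162 had 19 reads, LOC_Os07g18930 had 23, LOC_Os07g19130 had 52, LOC_Os07g19150 had 45, LOC_Os07g19550 had 16 and LOC_Os07g20164 had 37. The same stretch held LOC_Os07g18300, which had no reads in A but 33 in B and was at least 8-fold higher in B, so the stretch was not one-sided.

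The last group ran between 22910 and 23930 and comprised LOC_Os07g22910, LOC_Os07g23480 with 20 reads and LOC_Os07g23930 with 16. Of the 11 loci read in both libraries there, 10 were higher in A, 4 of them at least 2-fold. Outside these groups, LOC_Os07g09950 had 10 reads and LOC_Os07g28644 had 22, all in A. The remaining locus read in B only was LOC_Os07g30980, with no reads in A but 40 in B, and was at least 10.0-fold higher in B.

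Read numbers recurred among these weak loci. The 2 loci with 71 reads lie 300 locus numbers apart, LOC_Os07g13234 matched LOC_Os07g23480 at 20 reads, and LOC_Os07g19550 matched LOC_Os07g23930 at 16. In all, 9 of the 16 shared their exact read numbers with some other locus of the table, as did 30 of the 54 loci read in A only over all chromosomes. Among loci with under 100 reads that share was 43.4% on chromosome 7 and 44.5% in the table.

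Among loci read in both libraries, ratios ran between -5.33 and 6.22. The largest was at LOC_Os07g15440, with 79 reads in A against 1 in B, a log2 ratio of 6.22 (3.70 to 11.5). LOC_Os07g28210 had 62 reads in A against 1 in B, and LOC_Os07g18158 had 34 and 1. On the other side, LOC_Os07g25760 had 1 read in A against 38 in B, a ratio of -5.33 (-10.7 to -2.76). Ratios that rest on 1 read are poorly fixed, as their intervals show. At 4-fold or more, 20 of the 309 loci were higher in A, 13 of them in the centre and 18 with under 100 reads. Of the 15 that were higher in B by as much, 3 lay in the centre and 9 had under 100 reads. Over all 3846 loci of the table read in both libraries, 106 were at least 4-fold higher in A and 178 in B.

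With at least 100 reads over both libraries, the leading locus was LOC_Os07g27970, with 98 reads in A against 6 in B and a ratio of 3.95 (2.78 to 5.43). LOC_Os07g11739 had 264 reads in A against 58 in B, a ratio of 2.11 (1.69 to 2.54). LOC_Os07g28480 followed at 1.97 (1.36 to 2.64) and LOC_Os07g27350 at 1.58 (1.16 to 2.03). LOC_Os07g12770 and LOC_Os07g13520 shared the values of 105 reads in A against 31 in B, a ratio of 1.68. All 6 lay between numbers 11739 and 28480.

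In the direction of library B the leading locus was LOC_Os07g01540, near the start of the chromosome, with 13 reads in A against 122 in B and a ratio of -3.31 (-4.26 to -2.48). LOC_Os07g33910 had 25 and 113 reads, a ratio of -2.26 (-2.94 to -1.62), and LOC_Os07g42324 had 50 and 217, a ratio of -2.20 (-2.67 to -1.75). LOC_Os07g13634, inside the centre, stood at -2.12 (-2.74 to -1.53). LOC_Os07g34006 had 148 reads in A against 575 in B, and LOC_Os07g33954 had 148 and 569, with ratios of -2.04 and -2.02.

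Of 120 pairs of consecutive loci at most 50 locus numbers apart, 79 (65.8%) had the same direction, which was near the 62.7% of 1471 such pairs in the table. Unbroken stretches of 6 or more loci of 1 direction were found 10 times, 5 for each library. The 5 stretches of loci higher in A lay between 9800 and 35810, and 4 of these 5 had a locus in the centre. The 5 of loci higher in B lay between 30840 and 49114. Centring left 6 stretches for A and 2 for B. Without loci of matching read numbers there was 1 for A, from LOC_Os07g34770 to LOC_Os07g35810, and there were 6 for B.

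The longest stretch of loci higher in A ran from LOC_Os07g23340 to LOC_Os07g24940, with 11 loci, 4 of them at least 2-fold higher and 2 more read in A only. Its loci were weakly read for the most part, with a median of 66 reads over both libraries. The stretch of 8 loci from LOC_Os07g12540 to LOC_Os07g13520 had a median log2 ratio of 1.68 over its 5 loci read in both, with 3 more read in A only. The 7 loci from LOC_Os07g16370 to LOC_Os07g17960 had 214 to 1396 reads apart from LOC_Os07g16600, and 5 of them lay in the narrow range of 0.36 to 0.49.

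A stretch outside the centre had no locus whose read numbers matched another's. It ran from LOC_Os07g34770 to LOC_Os07g35810 with 7 loci, 6 of which were at least 2-fold higher in A. LOC_Os07g35230 had 49 reads in A against 9 in B, a ratio of 2.36 (1.32 to 3.58), and its neighbour LOC_Os07g35240 had 43 and 9, a ratio of 2.18 (1.12 to 3.40). LOC_Os07g35560 had 166 and 57, a ratio of 1.46 (1.02 to 1.92). LOC_Os07g35370, LOC_Os07g35390 and LOC_Os07g35810 stood at 1.22, 1.68 and 1.00. The remaining stretch, from LOC_Os07g09800 to LOC_Os07g10150, held the hexokinase gene HXK4 among its 6 loci and had a median ratio of 0.81.

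The longest stretch of loci higher in B ran from LOC_Os07g48500 to LOC_Os07g49114 near the end of the long arm. Its 10 loci had a median log2 ratio of -0.46, and 4 were at least 2-fold higher in B. When centred it no longer held 6 loci in a row, nor did the stretches that began at LOC_Os07g33660 and LOC_Os07g39470. LOC_Os07g48770 had 181 reads in A against 393 in B, a ratio of -1.20 (-1.46 to -0.94), and LOC_Os07g49114 had 59 and 159, a ratio of -1.51 (-1.97 to -1.07). The 9 loci from LOC_Os07g38000 to LOC_Os07g39280, with a median of -0.66, were followed by 8 from LOC_Os07g39470 to LOC_Os07g41430, with a median of -0.67. The first of these holds genes of a WNK kinase, an alpha-tubulin and a prenyltransferase, described below.

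The stretch of 6 loci from LOC_Os07g33660 to LOC_Os07g34006 held such like read numbers. LOC_Os07g33898 and LOC_Os07g33997 each had 837 reads in A against 922 in B. LOC_Os07g33954 and LOC_Os07g34006, each farther along than one of that pair, both had 148 reads in A and differed by 6 reads in B. The 2 loci with identical numbers may not be separate measurements. The remaining stretch, of 6 loci from LOC_Os07g30840 to LOC_Os07g31390, held the nucleoside diphosphate kinase gene OsNDPK1, the expansin-like gene EXLB1 and LOC_Os07g30980, which was read in B only.

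Of the 43 loci with a RefSeq symbol 9 were higher in A and 34 in B, whereas the 284 without a symbol had 141 and 143. Centring made these counts 19 and 24 with a symbol, and 162 and 122 without. With at least 100 reads the counts were 7 and 30 among loci with a symbol, and 96 and 118 among those without. In the centre only 4 loci had a symbol that passed the check of place, and all 4 were higher in B. The symbols are those a search by gene identity could place. Only 14 of the 43 loci were on the gene lists, which were written with earlier results of these data known. The other symbols were added after the values had been seen. The 43 loci are therefore no random sample of the chromosome, and the difference was not tested.

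**Figure D5:**
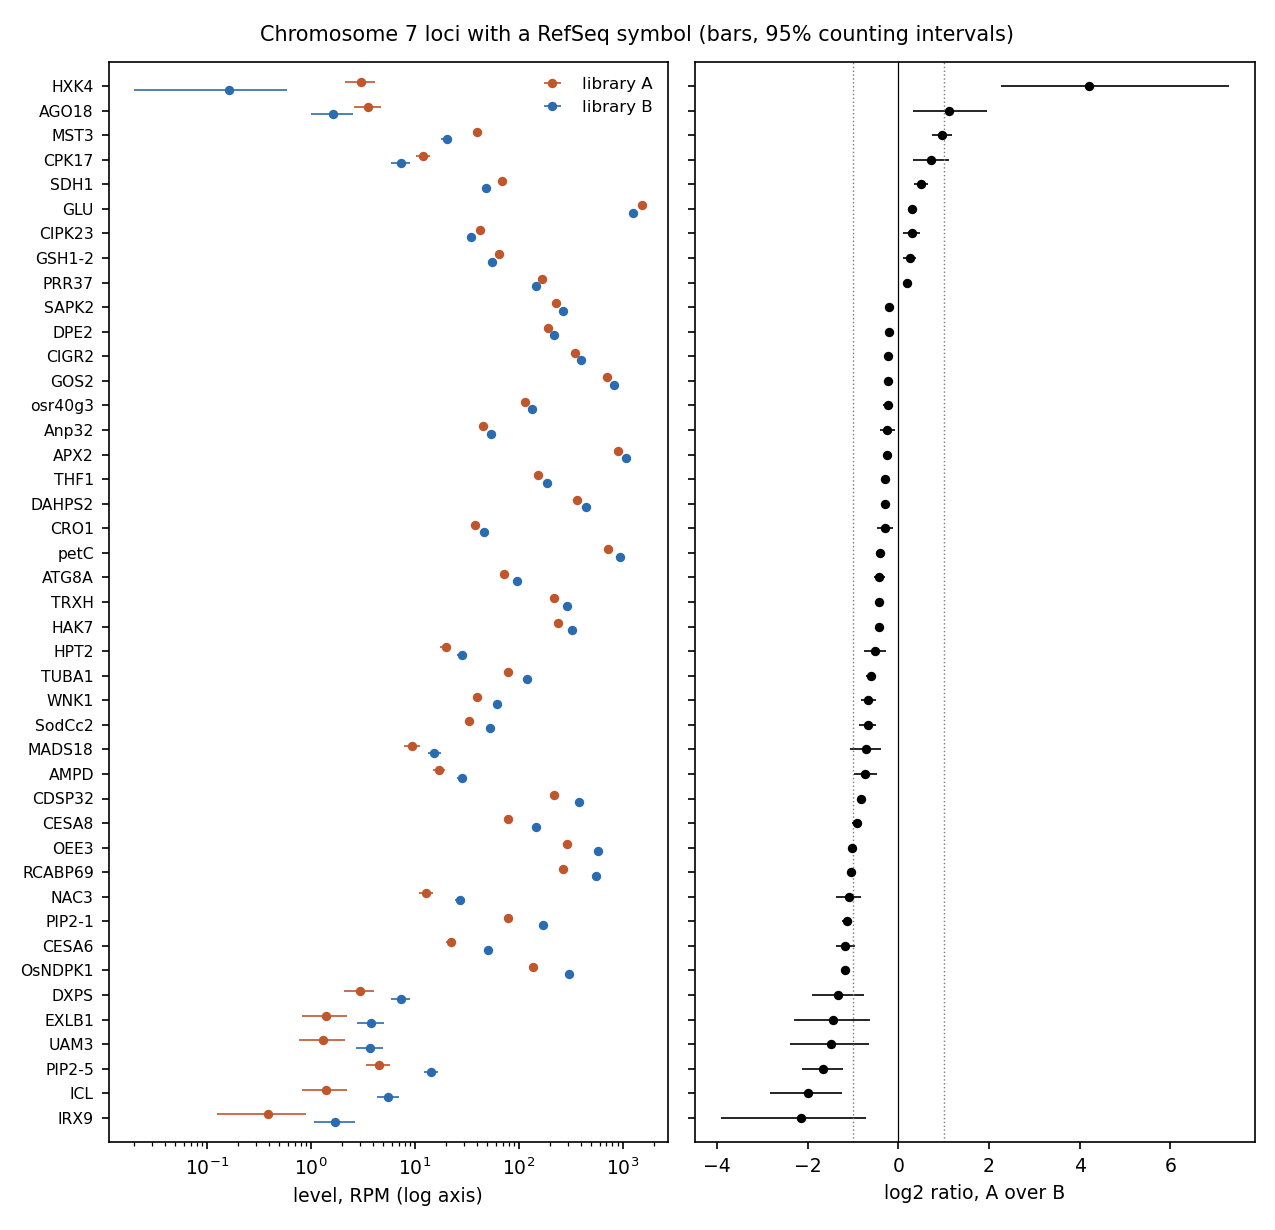
Left, level in RPM (log axis) in library A and library B of the 43 chromosome 7 loci with a RefSeq symbol, ordered by ratio; right, their log2 ratio of A over B. Bars are 95% exact counting intervals, 0 is equal levels and dotted lines mark 2-fold; 9 loci lie right of 0 and 34 left of it.

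Genes of photosynthesis, the markers of green leaf tissue, were strongly read in both libraries, and the listed ones in the table were higher in library B. Of 10 listed loci of light harvesting and photosystems, 9 were in the table, 9 of 9 higher in B, 2 of them at least 2-fold, with a median log2 ratio of -0.82. Over the table, 58.6% of loci were higher in B, and 16.8% of those read in both libraries were at least 2-fold higher in B. Centring and the table's own totals left 9 of 9 higher in B but 0 of them at least 2-fold. Over all loci read in both libraries the median was -0.31, and each of the 9 lay below it. RCABP69 (LOC_Os07g37240), for a chlorophyll a/b-binding protein, had 3455 reads in A against 6761 in B, 269 and 556 RPM, a ratio of -1.05 (-1.11 to -0.99). OEE3 (LOC_Os07g36080), for an extrinsic protein of the oxygen-evolving complex of photosystem II, had 289 RPM in A against 586 RPM in B, a ratio of -1.02 (-1.08 to -0.96). The gene petC (LOC_Os07g37030), for the Rieske iron-sulfur protein of the cytochrome b6f complex, differed less, with 716 RPM in A against 954 RPM in B and a ratio of -0.41 (-0.45 to -0.37). The 6 others in the table were not listed by RefSeq under the symbol searched and ranged between 0.50 and 0.95 below 0 on the log2 scale. THF1 (LOC_Os07g37250), the gene next to RCABP69 and needed for thylakoid formation, had 154 RPM in A against 188 RPM in B. Its ratio of -0.29 (-0.38 to -0.20) turned to 0.018 when centred.

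Enzymes that act in or feed the chloroplast did not share 1 direction. GLU (LOC_Os07g46460), for the ferredoxin-dependent glutamate synthase that recovers ammonium released in photorespiration, had 19674 reads in A against 15145 in B. Its levels were 1531 RPM in A against 1246 RPM in B, a ratio of 0.30 (0.27 to 0.33). CDSP32 (LOC_Os07g29410), for a thioredoxin-like protein of the chloroplast tied to drought and oxidative stress, had 217 RPM in A against 383 RPM in B, a ratio of -0.82 (-0.89 to -0.75). DXPS (LOC_Os07g09190), for an enzyme of the first step of plastid isoprenoid synthesis, had 38 reads in A against 90 in B, a ratio of -1.32 (-1.91 to -0.76). HPT2 (LOC_Os07g38850), for a homogentisate prenyltransferase, stood at -0.51 (-0.75 to -0.27). DAHPS2 (LOC_Os07g42960), for the entry step of the shikimate pathway, stood at -0.30 (-0.35 to -0.24) and turned to 0.013 when centred.

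Of 3 listed genes of membrane lipids and antioxidant enzymes 3 were in the table, all higher in B, against 1 in A and 2 in B when centred. The share higher in B was 58.6% over all loci of the table. APX2 (LOC_Os07g49400), for a cytosolic ascorbate peroxidase that removes hydrogen peroxide, had 11573 reads in A against 12978 in B. Its ratio was -0.25 (-0.28 to -0.21) and turned to 0.063 when centred. SodCc2 (LOC_Os07g46990), for a cytosolic copper/zinc superoxide dismutase, had 33.5 RPM in A against 53.6 RPM in B, a ratio of -0.68 (-0.86 to -0.50). Outside the list, TRXH (LOC_Os07g08840), for an h-type thioredoxin, stood at -0.42 (-0.49 to -0.35). GSH1-2 (LOC_Os07g27790), for glutamate-cysteine ligase, which starts glutathione synthesis, was instead higher in A, with 837 reads in A against 667 in B and a ratio of 0.25 (0.099 to 0.40).

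Of 6 listed water channels and metal transporters 2 were in the table, both higher in B and both at least 2-fold. When centred or on the table's own totals, 1 was at least 2-fold higher. The background was 58.6% higher in B and 16.8% at least 2-fold higher in B. PIP2-1 (LOC_Os07g26690) and PIP2-5 (LOC_Os07g26660) encode aquaporins of the plasma membrane and are near neighbours. PIP2-1 had 1011 reads in A against 2105 in B, 78.7 and 173 RPM, a ratio of -1.14 (-1.25 to -1.03). PIP2-5 had 58 and 174 reads, a ratio of -1.67 (-2.12 to -1.23). PIP2-4, the third gene of the cluster, was not in the table. The genes of the family are alike in sequence, so their read numbers are uncertain where reads match several of them.

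Of 8 listed glycan synthases of the cell wall, only 2 were in the table, both higher in B, where the background was 58.6%. They were CESA6 (LOC_Os07g14850) and CESA8 (LOC_Os07g10770), both in the centre. Their levels were 22.4 RPM in A against 50.3 RPM in B for CESA6, which fell under 2-fold when centred or on the table's own totals, and 78.5 RPM in A against 147 RPM in B for CESA8. The 6 CSLF genes, which serve mixed-linkage glucan synthesis and lie together on the long arm, were not in the table. Other wall genes were weakly read and also higher in B. IRX9 (LOC_Os07g49370), for a glycosyltransferase of xylan synthesis, had 5 reads in A against 21 in B, a ratio of -2.15 (-3.91 to -0.70). UAM3 (LOC_Os07g41360), for a UDP-arabinopyranose mutase family protein, had 17 and 45, and EXLB1 (LOC_Os07g31390) had 18 and 46, ratios of -1.48 and -1.43. TUBA1 (LOC_Os07g38730), for an alpha-tubulin of the microtubules, had 1021 and 1469, a ratio of -0.61 (-0.72 to -0.49).

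Genes of sugar use and central metabolism differed in both directions. HXK4 (LOC_Os07g09890), for a hexokinase, had 39 reads in A against 2 in B, a ratio of 4.21 (2.26 to 7.30), a wide interval with 2 reads in B. MST3 (LOC_Os07g01560), for a monosaccharide transporter, had 511 and 248 reads, a ratio of 0.96 (0.74 to 1.19). SDH1 (LOC_Os07g04240), for the flavoprotein subunit of mitochondrial succinate dehydrogenase, had 881 and 590, a ratio of 0.50 (0.35 to 0.65). In the other direction, ICL (LOC_Os07g34520), for isocitrate lyase of the glyoxylate cycle, had 18 and 68, a ratio of -1.998 (-2.84 to -1.23). OsNDPK1 (LOC_Os07g30970), which balances nucleoside triphosphates, had 1758 and 3730, a ratio of -1.17 (-1.25 to -1.08). AMPD (LOC_Os07g49270), for AMP deaminase, stood at -0.72 (-0.97 to -0.48). DPE2 (LOC_Os07g46790), for an enzyme that uses the maltose left by starch breakdown, stood at -0.20 and turned to 0.10 when centred.

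Kinases and regulators had mostly small ratios. CPK17 (LOC_Os07g06740), for a calcium-dependent protein kinase, had 155 reads in A against 89 in B, a ratio of 0.72 (0.33 to 1.11). The same pair of read numbers occurred at LOC_Os07g05700, 1040 locus numbers away. CIPK23 (LOC_Os07g05620), for a kinase that acts with calcineurin B-like calcium sensors, stood at 0.30 (0.11 to 0.48). WNK1 (LOC_Os07g38530) stood at -0.66 (-0.83 to -0.50). SAPK2 (LOC_Os07g42940), for a kinase of abscisic acid signalling, had 2954 and 3213 reads, a ratio of -0.20 that turned to 0.11 when centred. HAK7 (LOC_Os07g47350), for a potassium transporter, stood at -0.43 (-0.50 to -0.36).

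Of 9 listed genes of protein kinases and hormone signalling 3 were in the table, 1 higher in A and 2 in B, against 2 and 1 when centred. The background was 41.4% higher in A and 58.6% higher in B. Of 7 listed transcription factor and grain genes 1 was in the table, higher in A. RefSeq did not list the symbol searched for it, so it is left unnamed. NAC3 (LOC_Os07g12340), for a transcription factor of the NAC family, lay in the centre and had 165 reads in A against 333 in B, a ratio of -1.09 (-1.37 to -0.82). The locus before it in the table, LOC_Os07g12330, had 11 and 32, a ratio of -1.62. MADS18 (LOC_Os07g41370), a MADS-box gene of the flowering pathway, stood at -0.72 (-1.06 to -0.38). CIGR2 (LOC_Os07g39470), a GRAS family gene first known as induced by chitin and gibberellin, had 4435 and 4885 reads, a ratio of -0.22 that turned to 0.088 when centred. PRR37 (LOC_Os07g49460), a clock gene that delays heading in long days, had 2171 and 1793, a ratio of 0.20 (0.10 to 0.29).

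Genes of protein and RNA handling closed the set. GOS2 (LOC_Os07g34589), for a translation initiation factor used as a steady reference in rice, had 9127 reads in A against 10069 in B, a ratio of -0.22 (-0.26 to -0.18) that turned to 0.086 when centred. CRO1 (LOC_Os07g14270), for the chaperone calreticulin, stood at -0.30 (-0.48 to -0.12) and turned to 0.0075 when centred. ATG8A (LOC_Os07g32800), for a ubiquitin-like protein of autophagy, stood at -0.41 (-0.54 to -0.29). AGO18 (LOC_Os07g28850), for an Argonaute protein of antiviral defence in rice, had 46 reads in A against 20 in B, a ratio of 1.12 (0.34 to 1.96). LOC_Os07g23920 had the same 2 read numbers. Anp32 (LOC_Os07g41694) and osr40g3 (LOC_Os07g48500), for an abscisic acid-responsive lectin-domain protein, stood at -0.24 and -0.23 and turned to 0.068 and 0.081 when centred.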

How the data were processed

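The only values used were those of 1 table of the authors' own comparison. Per the file headers, the authors deposited the mean log2 share of reads, the log2 fold change between the 2 libraries, and a p-value and adjusted p-value per coding-sequence model. By the submitters' processing notes the authors used Bowtie 0.12.7, which aligns short reads, and edgeR, which compares counts. Build, annotation release, strand use and the treatment of reads with several matches were not stated in the sources used here. Per the labels, inserts were about 500 bp and single-end reads 100 bp long. Genes that missed the authors' threshold were not analysed here.

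Both log2 columns were solved for each library's share of reads, and the smallest step gave library sizes at which 100% of values were whole within 1e-06 of a read. The steps were tested on simulated data. Levels have exact Poisson and ratios exact Clopper-Pearson intervals, computed with scipy 1.17.1; reads copied by PCR are not independent, so they cover counting error only. No test of a difference was run, since each line has 1 library, and a log2 ratio of at least 1 replaced it.

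The members and the 8 gene lists were chosen with earlier results of these data known. Genes named are list members that RefSeq annotates, the 6 loci with most reads, the 6 largest ratios each way with at least 100 reads, all loci read in 1 library only and the ends of stretches. Other symbols were added after the values had been seen. Locus identifiers for 142 RefSeq symbols came from field knowledge and all kept their order along the chromosome. Each was placed between its neighbours by RefSeq position, except the first and last, which took the number of their only neighbour. The 139 placed within 100 locus numbers were used, with a median error of 12 and a largest of 95. PRR37 is the last symbol, so only its order was checked. The check of place cannot tell adjacent genes apart. Alternatives were other scalings, fold limits, levels, bin widths, pseudocounts of 0.1 and 1 RPM, and removal of loci with matching read numbers.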

Additional observations from a re-analysis of the deposited data

How the results depend on the processing

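No paired analysis was possible because each line has 1 library. Centring shifts every ratio by 0.31 and the table's own totals by 0.19 towards library A. Without loci of matching read numbers, counts higher in A and B became 89 and 125, and 7 loci had reads in A alone, 1 in B alone. At or above the table's median level the first pair was 57 and 88, because fewer loci were counted. That level is the mean log2 share of reads, so every locus with no reads in 1 library fell below it. Loci at least 2-fold higher in A and B numbered 74 and 118 at a log2 limit of 0.5, and 20 and 15 at a limit of 2. At or above the median level they were 0 and 10. Centring gave 34 for B, and a pseudocount of 1 RPM gave 31 for A. With up to 3 reads in B still counted as none, 27 loci were read in A only. Centring raised the share of bins with more loci higher in A to 60.0% (12 of 20). Of 59 single loci compared, 11 changed sign when centred: LOC_Os07g01760 to 0.24 (0.12 with the table's totals, the only one to turn there), CRO1 (LOC_Os07g14270) to 0.0075, GOS2 (LOC_Os07g34589) to 0.086, THF1 (LOC_Os07g37250) to 0.018, CIGR2 (LOC_Os07g39470) to 0.088, Anp32 (LOC_Os07g41694) to 0.068, SAPK2 (LOC_Os07g42940) to 0.11, DAHPS2 (LOC_Os07g42960) to 0.013, DPE2 (LOC_Os07g46790) to 0.10, osr40g3 (LOC_Os07g48500) to 0.081 and APX2 (LOC_Os07g49400) to 0.063. The cause of these changes is the shift itself. Depth limits HXK4, IRX9 and the other loci with under 100 reads most.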

Other observations

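The 6 chromosome 7 loci with most reads, ranked by reads and not per length, differed little between the libraries. LOC_Os07g01760 had 20335 reads in A against 20217 in B, at a ratio of -0.07 on the log2 scale (-0.10 to -0.04). LOC_Os07g37320 had 18895 and 17178, a ratio of 0.057 (0.027 to 0.087). LOC_Os07g37550 was the exception among the 6, with 9363 and 12548 reads and a ratio of -0.50 (-0.54 to -0.46). GLU, APX2 and LOC_Os07g22930 make up the 6 and are described above.

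Models of 1 locus differed little where there were several. Of 79 chromosome 7 loci with more than 1 model in the table, 23 showed the same reads in each model and 0 had models that differed in direction. Their log2 ratios differed by a median of 0.022 and at most 0.31.

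Within the chromosome, 8 pairs of loci shared both read numbers exactly. The most strongly read pair, LOC_Os07g33898 and LOC_Os07g33997 with 837 reads in A against 922 in B, lay 99 locus numbers apart, and LOC_Os07g12770 and LOC_Os07g13520 with 105 and 31 lay 750 apart. LOC_Os07g05700 and CPK17 (LOC_Os07g06740) with 155 and 89 lay 1040 apart, and LOC_Os07g12330 and LOC_Os07g49230 with 11 and 32 lay 36900 apart.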
